A study of Mus musculus with 2 samples.

Results

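Glutamate, GABA and glycine receptors include the ligand-gated channels that carry fast excitatory and inhibitory signals between neurons, and G-protein-coupled receptors that act more slowly and modulate those signals. The genes described here encode their subunits. They were chosen by name: rows of the authors' deposited gene table whose symbol begins with Gria, Grik, Grin, Grid, Grm, Gabr, Gabbr or Glr and ends in a subunit suffix. Of the 47 subunit genes described here, 7 had a row, out of 2323 genes in the table, and a gene without a row had no assigned peak. The 7 genes were Gria1, Gria2, Grik2, Grik3, Grik4, Grm7 and Gabrg1.

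The peaks come from CUT&RUN, in which antibody-tethered nuclease releases the DNA around a chromatin protein for sequencing. The sample was retina from CD1 wild-type mice at embryonic day 14, and the target was POU3F1, a transcription factor of the POU-domain family (1 library). The second library, from the same tissue, strain and age, used rabbit IgG. The title of the series places the study in the control, by Pou3f1, of retinal projections to the opposite side of the brain. The labels name no sorting into cell types and no number of embryos, and with 1 library per antibody no difference was tested between them.

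Ionotropic receptors are ligand-gated channels. AMPA (Gria), kainate (Grik) and NMDA (Grin) receptors are tetramers that pass cations when glutamate binds, and the delta subunits (Grid) are related proteins that act in synapse formation. GABA-A receptors (Gabr) and glycine receptors (Glr) are pentamers that pass chloride. Metabotropic glutamate receptors (Grm) and GABA-B receptors (Gabbr) act through G proteins. In the retina glutamate carries signals from photoreceptors to bipolar cells and on to ganglion cells, while amacrine and horizontal cells use GABA or glycine, and some of these receptors are present before synapses form.

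POU3F1 peaks were assigned to 7 of the 47 subunit genes, 14.9% (95% exact Clopper-Pearson interval 6.20 to 28.3%), beside 10.2% of all protein-coding genes. The share among members thus lay near the background, whose value is inside the interval. Glutamate receptor genes accounted for 6 of the 7: 6 of 24 had a peak (25%, interval 9.77 to 46.7%), against 1 of 18 GABA receptor genes (5.56%, interval 0.141 to 27.3%) and 0 of 5 glycine receptor genes. Within the glutamate receptors, peaks were assigned to 3 of 5 kainate, 2 of 4 AMPA, 1 of 7 metabotropic and 0 of 7 NMDA subunit genes. Within the GABA receptors, the gene with a peak encodes a gamma subunit of the GABA-A receptor. These class counts are small, their intervals overlap, and the differences between classes were not tested. Intervals here and throughout cover counting error only, except those of a median, which cover the spread of the listed values.

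Subunit genes are long, and long genes carried peaks more often. The median gene body of the 47 was 137.5 kb, against 17.1 kb for all protein-coding genes, and the 7 genes with a peak had a median of 319 kb against 92.7 kb for the other 40. Among genes with a body of at least 137.5 kb, 5 of 24 subunit genes had an assigned peak (20.8%, interval 7.13 to 42.2%), beside 38.7% of all protein-coding genes of that length. At 29.7 kb and above the values were 7 of 35 beside 18.3%, and at 16.8 kb and above 7 of 42 (16.7%) beside 14.7%. In the longest class, 400 kb and over, 3 of 10 subunit genes had a peak, while 54.3% of all such genes did. At 200 to 400 kb the values were 2 of 9 beside 40.1%, at 100 to 200 kb 1 of 6 beside 23.3%, and at 50 to 100 kb 1 of 7 beside 14.1%. At 20 to 50 kb they were 0 of 7 beside 8.19%, and under 20 kb 0 of 8 beside 5.69%. Within each length class the share of subunit genes was thus near or below that of all protein-coding genes, with few subunit genes in each. The higher share among all 47 subunit genes was not seen at genes of like length.

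**Figure D1:**
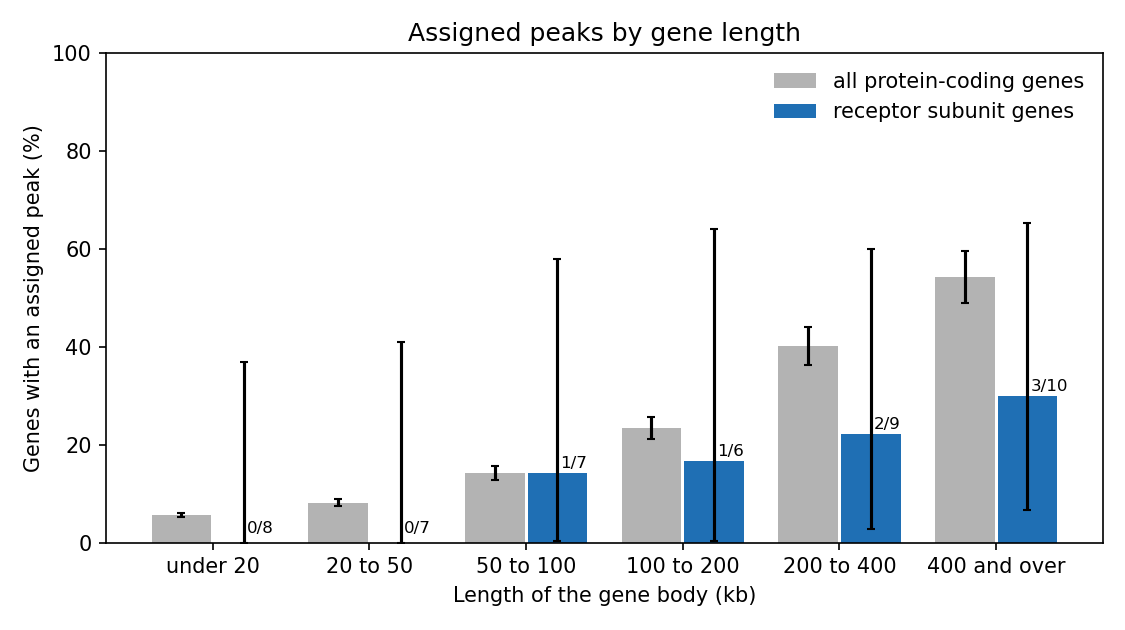
Share of genes with at least 1 assigned POU3F1 peak (y axis, percent) by length of the gene body (x axis, kb), for all protein-coding genes (grey) and receptor subunit genes (blue, with the number of genes). Bars carry 95% exact intervals, and from 100 kb upward the blue bars lie below the grey ones, with wide intervals that reach the grey values.

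The 7 genes had 14 assigned peaks, each a different interval of the genome. Single peaks were assigned to 2 genes and 2 peaks to another 4, while Grm7 had 4. None of the 14 lay within 5 kb of a transcription start site (TSS), a distance at which 1.4% of protein-coding genes had a peak. Only the nearest peaks of Grm7 and Grik4 lay within 50 kb, where 3.67% of protein-coding genes had one. Of the other pairs of gene and peak, 8 lay at 50 to 500 kb and 4 beyond 500 kb (57.1 and 28.6% of the 14). Over all 4427 pairs, 60.7% and 15.6% lay at these distances, 14.9% at 5 to 50 kb and 8.92% within 5 kb. The median absolute distance of all 14 was 251 kb, with an interval of 54.6 to 532 kb. The median over all 4427 pairs of the table, 161 kb, lay inside that interval. The 14 pairs came from 7 genes, with 4 pairs from Grm7 alone, so no difference in distance is drawn from these medians. The median of the subunit genes was 105.0 kb when only pairs within 500 kb were kept, and 130.5 kb with each peak given to its nearest TSS alone. Both limits remove the more distant pairs by construction. The median of all pairs under the same limits was not computed, so these values cannot be set beside 161 kb. Downstream of the TSS lay 13 of the 14, whereas 57.3% of all pairs did. Of the 13, 8 lay inside the gene bodies and so were downstream by definition, and the 4 of Grm7 are among the 13. The bodies of the 7 genes had a median of 319 kb, against 17.1 kb for all protein-coding genes. The share downstream was not compared with genes of like length.

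**Figure D2:**
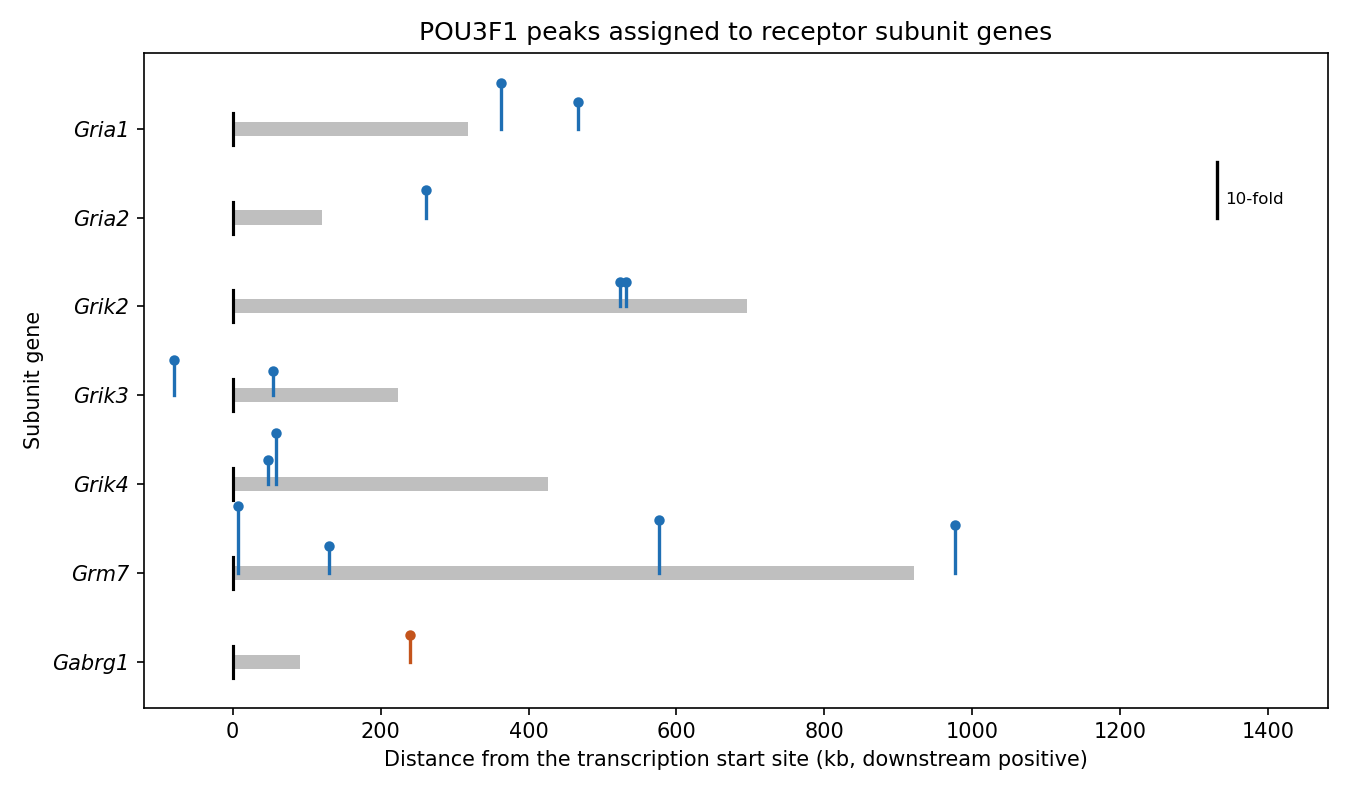
Positions of the 14 peaks by distance from the TSS (x axis, kb, downstream positive) for the 7 subunit genes (y axis), with gene bodies as grey bars and a black tick at the TSS. The height of each stem is the fold enrichment, to the scale of the 10-fold bar, in blue for glutamate and orange for GABA receptor genes. Grm7 carries 4 peaks, and the peaks of Gria1, Gria2 and Gabrg1 lie beyond the far ends of the genes.

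Enrichment was under 10-fold at most of these peaks, as at most peaks of the list. Each value is the authors' fold, which matched the summit pileup of fragments plus 1 over a background plus 1, so it is lower than the plain ratio of the pair. The recovered background was the same value, 1.04 fragments, at 5 of the 14 peaks (and at 790 of all peaks in the list), and a whole multiple of 0.514 fragments, within 0.005, at another 8. The intervals of the folds cover the pileup and leave the error of the background out. Over the 14 peaks it ran from 4.33 to 12.0 with a median of 4.91, against a median of 6.37 over all 2652 peaks of the list. Below that overall median lay 8 of the 14 and above it 6. A fold of 10 or more was reached by 1 of the 14 peaks (7.14%), against 18.7% of all peaks, and so by 1 subunit gene of 47, beside 2.79% of protein-coding genes with such a peak. The summit pileup, recovered from the fold and the p-value, ran from 8 to 48 fragments with a median of 14 (all peaks 19). Many of these peaks rest on so few fragments that their counting intervals overlap one another.

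**Figure D3:**
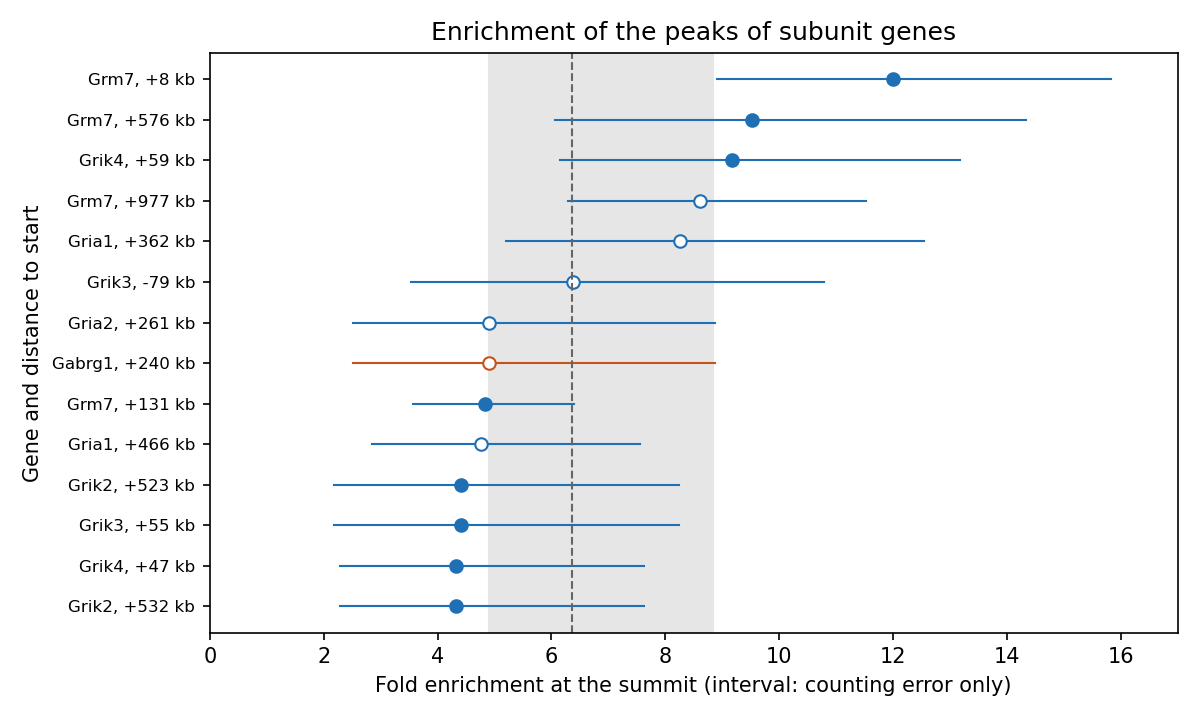
Fold enrichment at the summit (x axis) of the 14 peaks, named by gene and distance to the TSS (y axis), with 95% exact Poisson intervals of the summit pileup. Filled points lie inside the gene body and open points outside, blue for glutamate and orange for GABA receptor genes. The dashed line is the median of all peaks, 6.37, and the grey band their quartiles: 8 of the 14 points lie left of the line, and the strongest peak of Grm7 stands at 12.0.

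Grm7 encodes a presynaptic metabotropic glutamate receptor that couples to inhibitory G proteins and damps transmitter release. It had the strongest peak and the most peaks among the members, in a gene body of 921.9 kb on chromosome 6. The strongest, at chr6:110652466-110653817 (mm10), lay inside the gene 7560 bp downstream of the TSS and was 1352 bp long, the longest of the 14. Its fold was 12.0 (counting interval 8.91 to 15.8), rank 349 of 2652, on a summit pileup of 48 fragments (35.4 to 63.6). A second peak inside the gene, at chr6:110775879-110776357 and 130537 bp downstream, had nearly the same pileup, 46 fragments, but a fold of only 4.83 (3.56 to 6.41). The recovered background there was 8.73 fragments, against 3.08 at the strongest peak, so the pileups of these 2 peaks were alike and their folds were not. The third, at chr6:111221186-111221533, lay 575778 bp downstream, 62.5% of the way along the gene, with a fold of 9.53 (6.06 to 14.3) on 21 fragments. The last, at chr6:111621829-111622948, lay 55159 bp beyond the far end of the gene and had a fold of 8.61 (6.28 to 11.5) on 43 fragments. That peak was also assigned to Lmcd1, whose TSS is nearer at 651370 bp, against 976807 bp for Grm7.

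Grm2 to Grm6 and Grm8 had no assigned peak. Grm8, like Grm7 a group III receptor, has a gene body of 860 kb, and the nearest peak lay 235.1 kb outside it. Grm6, the receptor by which ON bipolar cells sense glutamate from photoreceptors, had its nearest peak 1468.3 kb away. The remaining ones ranged from 107.8 kb for Grm4 to 1444.6 kb for Grm5.

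Because no peak of the 14 touched an annotated promoter window, the promoter sequences show what lay outside the occupied intervals. RefSeq promoter sequence (build GRCm38.p6, the assembly of mm10; 250 bases before and 50 after the start) was matched for 36 of the 47 subunit genes in 43 windows, among them 6 of the 7 with a peak. The octamer ATGCAAAT, a classical POU-factor site, was in 0 of these 43 windows on either strand (interval 0 to 8.22%), where 1.66% of 21263 windows of all protein-coding genes held it. A looser form, ATGCNNAT, which includes the octamer, was in 5 of 43 (11.6%, interval 3.89 to 25.1%), beside 7.98% of all windows. All 5 belonged to genes with no assigned peak, and none to the 6 genes with one. The stretches with the 8 matching letters in capitals, read on the strand of each gene and lying wholly upstream of its start, are shown to set these promoters beside that of Grm7. Their positions are chr7:57510252-57510309 (minus), chr9:4796334-4796381 (minus), chr11:42321292-42321322 (minus), chr11:50850566-50850613 (plus) and chr16:59407193-59407240 (plus), in that order.
Gabra5: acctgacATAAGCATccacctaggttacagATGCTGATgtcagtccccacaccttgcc
Gria4: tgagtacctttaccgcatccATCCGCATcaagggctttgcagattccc
Gabra6: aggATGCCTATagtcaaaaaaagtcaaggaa
Grm6: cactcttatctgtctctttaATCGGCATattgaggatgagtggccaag
Gabrr3: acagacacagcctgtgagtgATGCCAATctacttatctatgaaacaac

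The Grm7 promoter is the subunit gene promoter nearest to any of the 14 peaks. It held neither of these motifs but did hold the first 7 letters of the octamer, ATGCAAA, a motif looked for only after this sequence had been read. ATGCAAA was in 4 of the 43 windows (9.30%) and in 4.23% of all windows. Of those 4, 2 were overlapping windows of Grm7, and the others belonged to Gabrb1 and Glra3, which had no peak. The 250 bases before the downstream start of Grm7, chr6:110645348-110645597 on the plus strand, are shown with these 7 letters in capitals. They are 65.2% G or C, against a median of 55.6% over all windows.
Grm7: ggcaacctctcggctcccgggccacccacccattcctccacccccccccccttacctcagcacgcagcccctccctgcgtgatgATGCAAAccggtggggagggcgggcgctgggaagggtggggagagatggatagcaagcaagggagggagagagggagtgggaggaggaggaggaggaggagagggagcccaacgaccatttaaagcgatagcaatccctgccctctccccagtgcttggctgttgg

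A match of this kind describes the letters in a window and not a bound site. The sequence under the peaks was not used here.

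Kainate receptor genes held 6 of the 14 peaks, 2 each at Grik2, Grik3 and Grik4, and 5 of them lay inside the genes. Grik4 encodes a high-affinity kainate subunit that forms channels together with a low-affinity subunit such as that of Grik2. Its stronger peak, at chr9:42885579-42885945, lay 58731 bp downstream of the TSS with a fold of 9.16 (6.15 to 13.2) on 27 fragments. The weaker, at chr9:42897037-42897278 and 47336 bp downstream, had a fold of 4.33 (2.28 to 7.63) on 10 fragments. The 2 peaks were 11.1 and 13.8% of the way along a gene of 426.8 kb, and both were also assigned to Tbcel, whose TSS is farther away at 424899 and 413504 bp.

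Grik3 encodes a low-affinity subunit and had the single upstream peak of the 14, at chr4:125411027-125411475, 79449 bp before the TSS. Its fold was 6.39 (3.54 to 10.8) on 12 fragments, close to the median of all peaks. The other peak of Grik3, at chr4:125545140-125545381, lay 54560 bp downstream inside the gene with a fold of 4.42 (2.19 to 8.23) on 8 fragments, and overlapped the annotated gene Gm32807 as well. Zc3h12a and Csf3r shared these peaks at 283411 and 479290 bp, so Grik3 had the nearer TSS in each case.

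Grik2, the kainate subunit gene with the longest body (696.5 kb), had a close pair of peaks 75.2 and 76.3% of the way along it. They lay 523414 and 531692 bp downstream of the TSS at chr10:49265213-49265491 and chr10:49256931-49257217. Their folds were 4.42 (2.19 to 8.23) on 8 fragments and 4.33 (2.28 to 7.63) on 10, and neither was assigned to any other gene. Both had q-values between 0.001 and 0.01 (0.00456 and 0.00227), so Grik2 had no peak left at a q-value under 0.001. At a q-value under 0.01 all 7 subunit genes kept a peak, beside 10% of protein-coding genes. Grik1 and Grik5 had no assigned peak; the nearest to Grik5 lay 103.8 kb upstream of the gene (6.47-fold, 25 fragments) and was assigned to Dedd2 and to Pou2f2.

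AMPA receptor genes had 3 peaks, all of them past the ends of the genes. Gria1, whose product is a main AMPA subunit of excitatory synapses, had the stronger at chr11:57374110-57374458, 362474 bp downstream of the TSS and 44040 bp beyond the far end of the gene. Its fold was 8.26 (5.20 to 12.5) on 20 fragments. The other, at chr11:57477900-57478368, lay 466324 bp downstream with a fold of 4.76 (2.84 to 7.56) on 16 fragments. Both were also assigned to Fam114a2, whose TSS is nearer, at 144319 and 40469 bp, so with each peak given only to its nearest TSS Gria1 had none.

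Gria2 encodes the subunit whose RNA editing makes AMPA channels nearly impermeable to calcium. Its peak at chr3:80541252-80541602 lay 261408 bp downstream of the TSS and 140023 bp beyond the end of the gene, with a fold of 4.91 (2.51 to 8.88) on 9 fragments. The glycine receptor beta gene Glrb is the next subunit gene on that chromosome. The same peak was the nearest to it, 302 kb from its gene body, but was not assigned to it. Gria3, on chromosome X, and Gria4 had no assigned peak, with the nearest at 968.4 and 1158.8 kb.

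Grid1, which encodes a delta receptor subunit and has a body of 763.4 kb, had no assigned peak, and the nearest lay 1552.1 kb away.

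None of the 7 NMDA receptor genes had an assigned peak (exact interval 0 to 41.0%). For the long genes of the NMDA group the nearest peak lay 344.8 kb from Grin2b, 878.7 kb from Grin3a and 3320 kb from Grin2a. The nearest to the shorter gene Grin2c lay 997.1 kb away. Grin2d and Grin3b lay near peaks that were assigned to their neighbours. A peak at chr7:45830912-45831342 (7.87-fold, 19 fragments) lay 541 bp beyond the 3′ end of Grin2d, but it was assigned to Grwd1, 183 bp upstream of the TSS of that gene. A peak at chr10:79984350-79985525 (11.6-fold, 160 fragments) lay 7160 bp beyond the 3′ end of Grin3b and was assigned to Tmem259, 607 bp upstream of its TSS, and to Cnn2. The obligatory subunit gene Grin1 had its nearest peak 105 kb beyond its 3′ end, assigned to Nrarp and Tor4a. These neighbours were named after the values had been seen.

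Many GABA-A receptor genes sit in clusters. That of Gabrg1, Gabra2, Gabra4 and Gabrb1 spans 1.399 Mb of chromosome 5, and that of Gabre, Gabra3 and Gabrq spans 0.586 Mb of chromosome X. Each held 0 peaks, and the nearest peaks lay 147.8 and 1310.8 kb outside them. The peak list holds 43 peaks on the whole of chromosome X, where 6 of the 47 subunit genes lie, all without a peak.

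Gabrg1, the single GABA receptor gene with a peak among those described, is the outermost gene of its cluster. Gamma subunits contribute to the benzodiazepine site of GABA-A receptors and to their clustering at synapses. The peak of Gabrg1, at chr5:70602390-70603268, lay 239788 bp downstream of the TSS and 148218 bp beyond the gene, with a fold of 4.91 (2.51 to 8.88) on 9 fragments, and no other gene shared it. None of the 5 alpha and 2 beta subunit genes described, which encode the GABA-binding interface, had a peak.

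The remaining inhibitory receptor genes had none either. They are the delta, epsilon, pi and theta subunit genes Gabrd, Gabre, Gabrp and Gabrq, the rho subunit genes Gabrr1 to Gabrr3, the gamma subunit gene Gabrg3, the GABA-B genes Gabbr1 and Gabbr2, and the glycine receptor genes Glra1 to Glra4 and Glrb. The rho subunits form GABA channels that are prominent in bipolar cells of the mature retina. The nearest peak to any gene of this set lay 80.6 kb upstream of Gabrp (4.42-fold, 8 fragments), assigned to D130052B06Rik and Kcnip1. For 0 of 5 glycine receptor genes the exact interval reaches 52.2%.

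**Figure D4:**
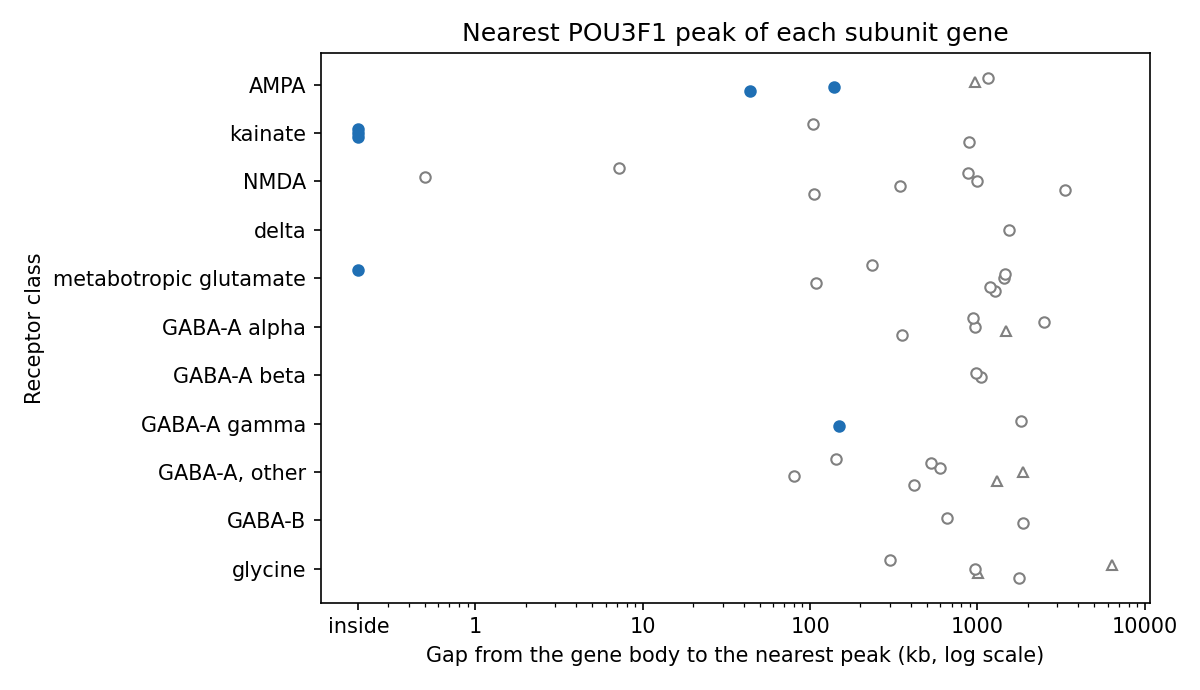
Gap from each subunit gene body to the nearest peak of the list (x axis, kb, log scale; inside means that a peak overlaps the gene), by receptor class (y axis). Filled points are the 7 genes with an assigned peak, open points the other 40, and triangles genes on chromosome X. Peaks lie inside 3 kainate genes and Grm7, and Grin2d and Grin3b are open points close to a peak.

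Position alone was also counted, without the assignment rule. A peak overlapped the body of 4 of the 47 subunit genes (Grik2, Grik3, Grik4 and Grm7), beside 3.74% of protein-coding genes on the autosomes and X. The bodies of the 47 held 8 peaks in 10.8 Mb, or 0.742 per Mb (95% exact Poisson interval 0.320 to 1.46), against 1.23 per Mb (1.16 to 1.30) in the bodies of all protein-coding genes. Without Grm7, which held 3 of the 8, the rate was 0.507 per Mb (0.165 to 1.18). Grm7 had the most peaks of the members, so leaving it out lowers the rate by construction. These rates were not compared with genes of matched length. Glutamate receptor genes had 1.06 per Mb (0.459 to 2.09) and kainate genes 2.77 per Mb (0.898 to 6.45), intervals that include the overall rate. The autosomal GABA receptor genes had 0 peaks in 2.41 Mb (0 to 1.53 per Mb), an interval that includes the 1.27 per Mb of all autosomal protein-coding genes. With a margin of 10 kb around the body, 6 of the 47 had a peak (12.8%, interval 4.83 to 25.7%) beside 5.04% of all genes. The genes added by that margin were the NMDA genes Grin2d and Grin3b, which had no assigned peak. With 100 kb 8 had one (17%, interval 7.65 to 30.8%) beside 14.1%, the further genes being Gria1 and Gabrp. Gria2 and Gabrg1 are not among those 8, since their assigned peaks lay more than 100 kb away.

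Assignment to several genes touched 8 of the 14 peaks, and none of these was shared between the subunit genes described. With each peak given only to its nearest TSS, 6 subunit genes (Gabrg1, Gria2, Grik2, Grik3, Grik4 and Grm7) kept a peak, beside 6.76% of protein-coding genes. At a q-value under 0.001 there were 6 as well, beside 9.61%, without Grik2. Within 500 kb of the TSS there were 6, beside 9.53%, again without Grik2.

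Genes that work with these receptors were also described by count. Of 20 genes for auxiliary subunits and partners of ionotropic glutamate receptors, 7 had an assigned peak (35.0%, interval 15.4 to 59.2%). The strongest was at Cacng3, which encodes a stargazin-like AMPA receptor subunit (9.81-fold, 192510 bp upstream), followed by Cbln4, a cerebellin gene (7.48-fold), Cacng5 (7.24-fold) and Neto1, whose product binds kainate receptors (5.89-fold, 915578 bp upstream). Of 18 excitatory scaffold genes, 5 had a peak (27.8%, 9.69 to 53.5%). Grip1, an AMPA receptor-binding scaffold gene, had 4, among them the 1 closest to a TSS in that list, 1496 bp downstream (10.8-fold, chr10:119820773-119821243). Dlgap1 (9.53-fold), Dlgap3 (8.18-fold) and Dlg2 (6.39-fold) followed.

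At inhibitory synapses, 3 of 14 genes had a peak (21.4%, 4.66 to 50.8%). Kctd8, an auxiliary subunit gene of GABA-B receptors, had 4 peaks, the strongest 880871 bp downstream (8.26-fold), and Slitrk3 had 1 (4.91-fold). Nlgn2, the neuroligin gene of inhibitory synapses, had a peak 565 bp upstream of its TSS (3.90-fold, chr11:69838183-69838515), which was also assigned to Tmem256. Of 23 genes for synthesis and transport of the transmitters, 6 had a peak (26.1%, 10.2 to 48.4%). They were led by the glial glutamate transporter gene Slc1a2 (15.7-fold, 27390 bp downstream), the GABA-synthesising enzyme gene Gad2 (13.1-fold, 328503 bp upstream), Slc1a3 (10.8-fold) and Slc17a6, the vesicular glutamate transporter gene of retinal ganglion cells (6.39-fold). All 4 lists had shares above the 10.2% of protein-coding genes. The intervals of the scaffold and inhibitory synapse lists included that value, and that of the transmitter list began at it. Bodies of at least 100 kb were found for 7 of the 20 auxiliary, 9 of the 18 scaffold and 5 of the 14 inhibitory genes. Only 3 of the 23 transmitter genes had such a body, and those of Gad2, Slc1a3 and Slc17a6 were 72.9, 76.7 and 49.3 kb. Among all protein-coding genes, 23.3% of those with a body of 100 to 200 kb had an assigned peak, and 14.1% of those of 50 to 100 kb. The lists were not compared with genes of matched length.

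Among voltage-gated channel subunit genes, another group of membrane channels of neurons, 15 of 64 had an assigned peak (23.4%, interval 13.8 to 35.7%). Their median gene body was 61.5 kb. The share of all protein-coding genes, 10.2%, lies below that interval, and the 14.1% of genes with a body of 50 to 100 kb lies inside it. The intervals of channel and receptor subunit genes overlap, and their difference was not tested.

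Occupancy does not measure expression, so the labelled tissue could not be checked by marker levels. As positions only, 6 of 10 retinal marker genes had an assigned peak (interval 26.2 to 87.8%), beside 10.2% of protein-coding genes. So did 3 of 5 of pigment epithelium (14.7 to 94.7%), 2 of 5 of lens (5.27 to 85.3%) and 2 of 6 of endothelium, blood and microglia (4.33 to 77.7%). The part of other cell types in the peaks of subunit genes was not tested. Library depth is unknown from the files used here.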

How the data were processed

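Retinal chromatin of day 14 embryos was profiled by CUT&RUN in 1 POU3F1 and 1 rabbit IgG library, and no IgG signal was analysed. Tools named in the submitters' processing notes are Bowtie2, MACS2 and deepTools, with no version, and the build is mm10. The authors' deposited peak list gives for each of 2652 peaks a fold enrichment (a ratio), −log10 p- and q-values, and a score. Whether the IgG library served as control for these values is not given in the sources used here. Per the file headers, peaks were assigned to genes with GREAT 4.0.4 (5000 bp upstream, 1000 bp downstream, extension to 1000000 bp, curated domains included), and the deposited distances run from peak to TSS.

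From these files, each distance was placed on a peak midpoint within 1 bp (97.4% of pairs), taking for each gene the TSS nearest to a RefSeq start; the 14 pairs described here each had 1 placement. Strand came from RefSeq promoters where given. Exons and introns were not separated. Summit pileups were recovered from fold and p-value (98.4% of peaks, within 0.001 on the log10 scale), with exact Poisson 95% intervals, which also gave the fold intervals. They cover counting error only, since PCR copies cannot be told from separate molecules. Placement and recovery were run on simulated data as a check of the code. Those data were made with the known start and with the formula that recovery inverts, so they do not measure accuracy on the real peaks. Shares carry exact Clopper-Pearson intervals. Python 3.11.15, pandas 2.3.3 and scipy 1.17.1 were used. In the gene table, 3 names had become dates and 49 others matched no RefSeq gene.

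The members and lists were chosen with earlier results of these data known, and no test across genes was made. Some genes that meet the rule are not reported here and are left out of all counts of members. Every subunit gene described that has a peak is named, as are the 4 members with the strongest peaks of each partner list (3 where only 3 had a peak). Alternatives were stricter peak thresholds (q-value under 0.01 or 0.001, fold of at least 10), distance limits of 5, 50 and 500 kb, the nearest TSS only, other overlap rules and other motif forms. Further ones were autosomal members only, minimum lengths of the gene body, and pairs counted in place of peaks.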

Additional observations from a re-analysis of the deposited data

How the results depend on the processing

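The counts depend most on how far from the TSS a peak may be assigned and on the fold required. With a fold of at least 10, the 7 subunit genes became 1, the 14 peaks 1, the 4 receptor classes with a peak 1, the 21 genes of the partner lists 4 and the 8 peaks in gene bodies 1, while the median fold became 12.0 and the median distance 7.56 kb. Within 50 kb, there were 2 subunit genes, 2 peaks and 2 classes, with 6 partner genes and a median distance of 27.4 kb. Within 5 kb, there were 0 subunit genes, 0 peaks and 0 classes, with 2 partner genes. With the nearest TSS only, 13 partner genes remained, and at a q-value under 0.001 gene bodies held 4 peaks. The share of all protein-coding genes with a peak fell from 10.2% under the same settings. It was 2.79% at a fold of at least 10, 3.67% within 50 kb, 1.4% within 5 kb and 6.76% with the nearest TSS only. The share of promoter windows with the motif went from 0% to 11.6% with ATGCNNAT and, added after the sequences were seen, to 9.30% with ATGCAAA; these looser forms match more sequences by construction. Of 53 recalculations of these results, 33 stayed within 1.5 times the count or within the interval of the median. Some of the 33 could not have moved. All 7 genes are autosomal with bodies of at least 91.6 kb, above the length cuts of 16.8 and 29.7 kb. The 14 pairs are also 14 distinct peaks, so counting pairs gave the same median fold. Other results had to move or could move in 1 direction only. Counts can only fall under a stricter limit. With a fold of at least 10 the median fold cannot be under 10, and within 50 kb the median distance cannot exceed 50 kb. Both medians at a fold of at least 10 rest on 1 peak. Motifs around peak summits were not run, since no genome sequence was used here. No paired analysis was possible because each antibody had 1 library. A summit pileup of 8 to 10 fragments, as at 6 of the 14 peaks, limits how well their folds can be ranked.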
